A study of Mus musculus with 10 samples.

Results

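Solute carriers are membrane proteins that move amino acids, sugars, ions, metals, vitamins and nucleotides across the plasma membrane or the membranes of organelles, and their gene symbols begin with Slc. The set described here holds 131 solute carrier genes from 41 families, out of 11228 genes in the expression table. A gene entered if its symbol had the form Slc, family number, letter, member number and if its mean over the 6 RNA-seq libraries reached 1 FPKM, which divides fragments by transcript length and by library size. The pattern took 174 symbols, of which 34 belonged to the mitochondrial family Slc25, 5 (Slc2a1, Slc2a3, Slc16a3, Slc16a4 and Slc30a1) were left out by name and 4 were below 1 FPKM. These 4 were Slc8a1 (mean 0.754 FPKM), Slc16a6 (0.852), Slc24a3 (0.865) and Slc1a3 (0.913), and members just above the limit included Slc15a3 (1.27) and Slc14a1 (1.27). Of the carriers known best from adult muscle, Slc2a4, Slc8a2 and Slc8a3 are not analysed here.

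The libraries came from mouse myotubes, the multinucleate fibres that myoblasts form by fusion, after 2 days of differentiation in culture. The long non-coding RNA Charme was depleted with gapmers, which are antisense oligonucleotides with a DNA centre that lets RNase H cut the bound RNA. There were 2 libraries of polyadenylated RNA from cells treated with the control gapmer GAP-scr, 2 from cells treated with the gapmer set GAP-2 and 2 from cells treated with the set GAP-2/3, in each case replicates A and B. Both depleted arms were compared with the same GAP-scr libraries, so their values against GAP-scr are not independent. A separate ChIRP-seq assay pulled Charme down with even or odd tiling probes and sequenced the DNA bound to it, beside input DNA and LacZ probes as control (1 library of each kind).

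Amino acid carriers differ in how they work. Some, such as the glutamine carriers of the Slc38 family, import with sodium, whereas others exchange an amino acid inside the cell for one outside. The exchangers of the Slc7 family that are called light chains reach the plasma membrane as partners of a single-pass glycoprotein, the heavy chain Slc3a2 (4F2hc). Through the light chain Slc7a5 (LAT1) muscle takes up leucine, which feeds the growth kinase mTORC1. Other carriers stay inside the cell, where those of the Slc35 family bring sugar nucleotides into the endoplasmic reticulum and Golgi for glycosylation and those of the Slc30 family load zinc into secretory vesicles.

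Median FPKM ran from 11.9 to 13.3 over the 6 libraries, and the depth is unknown because FPKM does not retain it. Rn45s, the ribosomal RNA precursor, was uneven, with 3387 FPKM in replicate A of GAP-scr, 4090 in replicate A of GAP-2 and 93.2 to 176 elsewhere. All 10 myotube markers were present, and their summed level was 11788 and 12655 FPKM in GAP-scr, 7150 and 7363 in GAP-2, and 7820 and 8213 in GAP-2/3. Of the 10, 9 fell in GAP-2 and 5 in GAP-2/3 at the threshold given below, beside 4.18% and 11.3% of all tested genes. In such bulk samples fewer differentiated cells and less RNA per cell cannot be told apart. No label ties the replicates to separate cultures. The p-values therefore rest on the spread among these 6 libraries alone, and that spread may be technical.

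Taken as one set, the solute carriers moved about as often as other genes against GAP-scr. Log2 changes here are of FPKM + 1, a scale that understates the change of weakly expressed genes, and a gene is said to have risen or fallen where limma's Benjamini-Hochberg adjusted p over all 10993 tested genes was below 0.05. Against GAP-scr, 24 of 131 members (18.3%) passed in GAP-2, 19 higher and 5 lower, beside 14.6% of all tested genes (10.4% higher and 4.18% lower). In GAP-2/3, 52 members (39.7%) passed, 33 higher and 19 lower, beside 39.3% of all genes (28.0% higher and 11.3% lower). For the mean of both arms it was 47 (35.9%), 33 higher and 14 lower, beside 34.1% (24.5% higher and 9.57% lower). Between the arms 19 members (14.5%) passed, 6 higher in GAP-2/3 (4.58%) and 13 lower (9.92%), beside 10.1% of all genes (6.50% higher and 3.65% lower). Of the 13, 9 were amino acid carriers.

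The direction of these counts depended on scaling. With the libraries scaled to one median FPKM GAP-2 had 13 higher and 8 lower, GAP-2/3 had 19 and 26, and there were 24 and 23 for the mean of both arms and 4 and 15 between the arms. With quantile normalization they were 13 and 8, 15 and 34, 18 and 25, and 4 and 15. The median log2 change of all genes in GAP-2/3 against GAP-scr was 0.13 as deposited, 0.03 with one median and 0.01 with quantile normalization. The members' own median was 0.04 as deposited in that comparison and 0.07 in GAP-2, where that of all genes was also 0.07. Without GAP-2/3 replicate A the count in GAP-2/3 was 17 and that between the arms 7.

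**Figure D1:**
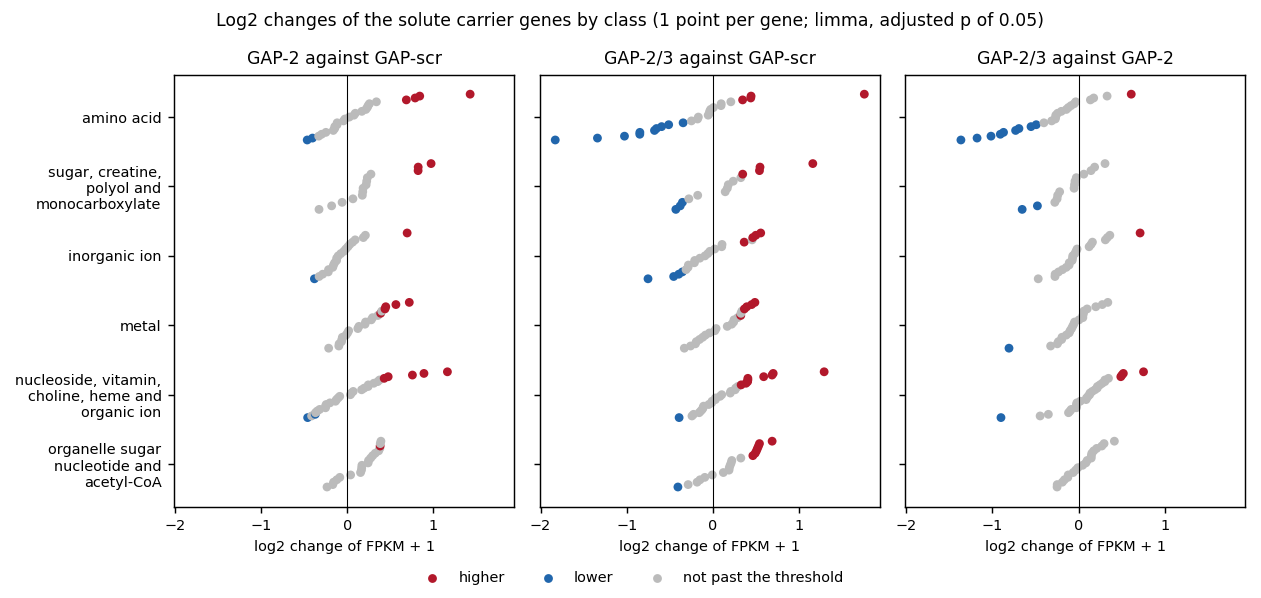
Log2 change of FPKM + 1 (x axis) of each of the 131 solute carriers, grouped in 6 classes by what they carry and ordered within a class by size of change, for GAP-2 against GAP-scr, GAP-2/3 against GAP-scr and GAP-2/3 against GAP-2; red and blue points are genes higher and lower past an adjusted p of 0.05 in limma, grey points are not past it. The points farthest to the left belong to the amino acid class in GAP-2/3, where 10 of 25 genes are blue, and 9 are blue between the arms.

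The amino acid carriers were divided by arm. Of 25, 10 fell and 4 rose in GAP-2/3 against GAP-scr, whereas 2 fell and 4 rose in GAP-2. The 10 are 40.0% of the class, where 11.3% of all tested genes fell in GAP-2/3 (4.18% in GAP-2). The class was drawn up with earlier results of these data known, so its difference from all genes is only a description. The share that rose was 16.0% in each arm, beside 28.0% and 10.4% of all genes. Among those that rose in GAP-2, Slc15a3, Slc6a15 and Slc6a17 reached a mean of 1 FPKM only through the libraries in which they were high. Slc6a15 and Slc6a17 were also among those that rose in GAP-2/3, so the shares that rose depend on that filter. Set directly against GAP-2, GAP-2/3 was lower for 9 of the 25 (36.0%, beside 3.65% of all genes) and higher for 1. The median log2 change of the class was -0.17 in GAP-2/3, 0.02 in GAP-2 and -0.26 between the arms, where that of all tested genes was 0.13, 0.07 and 0.05. The 9 lower and 1 higher between the arms held with one median, with quantile normalization and without both libraries highest in Rn45s. The counts in GAP-2/3 were then 11 lower and 2 higher, 11 and 1, and 9 and 3. Without replicate A or B of GAP-2/3, 5 were lower between the arms and the 14 calls of GAP-2/3 became 9, as they did without GAP-scr replicate B. The 6 calls of GAP-2 became 3 without its replicate A.

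Slc7a5, the large neutral amino acid exchanger LAT1, fell the most of the 131 members in GAP-2/3. It stood at 60.3 and 68.6 FPKM in GAP-scr, 44.6 and 48.1 in GAP-2, and 16.3 and 18.5 in GAP-2/3. The 3 groups did not overlap, and the mean level in GAP-2/3 was 27.0% of that in GAP-scr. The log2 change was -1.83 ± 0.12 in GAP-2/3 (SE, adjusted p = 1.32e-06 in limma), -0.46 ± 0.12 in GAP-2 (adjusted p = 0.0232) and -1.36 ± 0.12 between the arms (adjusted p = 3.87e-05). The call in GAP-2 was lost without GAP-scr replicate B, without either GAP-2 replicate and without both libraries highest in Rn45s.

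Slc3a2, the heavy chain, was at 122 and 137 FPKM in GAP-scr, 113 and 126 in GAP-2, and 60.0 and 66.0 in GAP-2/3. Both GAP-2/3 libraries were below the other 4, while those of GAP-2 overlapped GAP-scr. The log2 change was -1.03 ± 0.11 in GAP-2/3 (SE, adjusted p = 8.49e-05, limma) and -0.12 ± 0.11 in GAP-2 (adjusted p = 0.496), and the difference between the arms passed at -0.91 ± 0.11 (adjusted p = 4.88e-04).

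Besides Slc7a5, 3 other partners of Slc3a2 were among the members, and they did not move alike. Slc7a6 (y+LAT2), which trades cationic for neutral amino acids, kept to 17.4 to 18.6 FPKM over the 6 libraries, with log2 changes of 0.02 ± 0.11 in GAP-2 and -0.03 ± 0.11 in GAP-2/3 that did not pass. Slc7a11 (xCT), the cystine and glutamate exchanger that supplies cysteine for glutathione, was at 6.42 and 9.01 FPKM in GAP-scr, 9.14 and 8.87 in GAP-2, and 5.58 and 3.56 in GAP-2/3. It fell in GAP-2/3 against GAP-scr (-0.65 ± 0.18, adjusted p = 0.0152, limma) and against GAP-2 (-0.87 ± 0.18, adjusted p = 0.0121), calls that were lost without GAP-2/3 replicate B and, against GAP-scr, also without GAP-scr replicate B. Slc7a7 (y+LAT1), the exporter of arginine and lysine that is defective in lysinuric protein intolerance, went the opposite way. It was at 2.63 and 2.54 FPKM in GAP-scr, 8.44 and 8.83 in GAP-2, and 10.2 and 12.1 in GAP-2/3, and rose in both arms (log2 1.43 ± 0.12, adjusted p = 3.20e-05, and 1.76 ± 0.12, adjusted p = 2.73e-06). These were the highest rises of any member on the scale of log2(FPKM + 1), although the ratio of mean FPKM was higher for the weakly expressed Slc2a9. The difference between the arms did not pass (0.33 ± 0.12, adjusted p = 0.116).

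Since FPKM is scaled to length, the levels of the light chains can be set beside each other, a sum chosen after their values were seen and given without a test. Slc7a5 made up 68.5% and 70.2% of the FPKM of these 4 light chains in GAP-scr, 55.3% and 57.2% in GAP-2, and 32.9% and 35.5% in GAP-2/3. The share of Slc7a7 was 3.00% and 2.60%, then 10.5% in both GAP-2 libraries, then 20.6% and 23.3%. The sum itself was 87.9 and 97.6 FPKM in GAP-scr, 80.6 and 84.1 in GAP-2, and 49.5 and 52.2 in GAP-2/3. In GAP-2/3 Slc7a6, at 35.2% and 34.4%, thus held about the same share as Slc7a5, although its own FPKM differed little from that in GAP-scr.

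**Figure D2:**
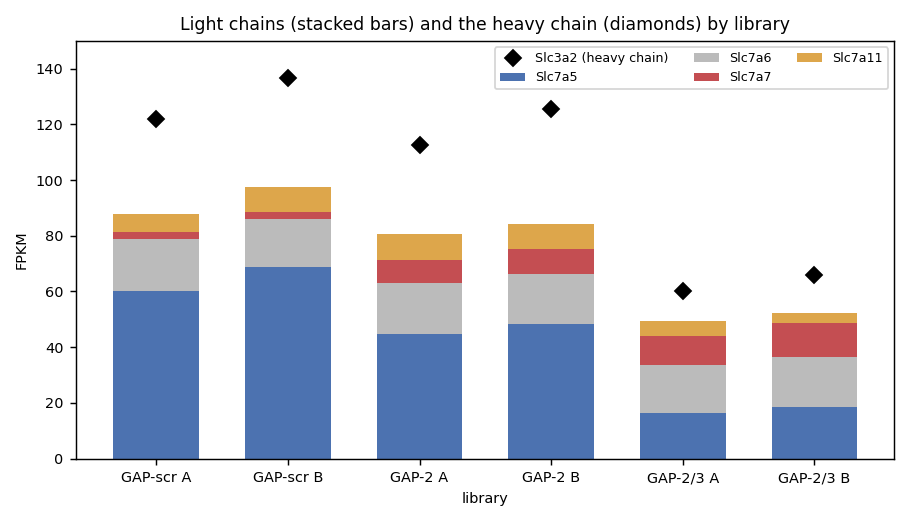
Stacked FPKM (y axis) of the 4 light chains that pair with Slc3a2, and the FPKM of Slc3a2 itself (diamonds), in each of the 6 libraries. The bars of GAP-2/3 are the shortest, at 49.5 and 52.2 FPKM, and the Slc7a5 segment shrinks from 68.5% and 70.2% of the bar in GAP-scr to 32.9% and 35.5%, while the Slc7a7 segment grows from 3.00% and 2.60% to 20.6% and 23.3%.

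Promoter sequence is shown for the light chains that moved in opposite directions in GAP-2/3 and whose promoters hold the letters TGATGNAA, a form of the C/EBP-ATF response element through which ATF4 acts on amino acid carriers. RefSeq sequence of GRCm38.p6 was searched on both strands over the 250 bases before the start site. The stretch of Slc7a11 is chr3:50443624-50443713, minus strand, bases -100 to -11 from its start site, and the stretch of Slc7a7 is chr14:54418054-54418114, minus strand, bases -170 to -110, at 1 of its start sites. Both are written 5′ to 3′ in the direction of the gene, with the matches in capitals.
Slc7a11: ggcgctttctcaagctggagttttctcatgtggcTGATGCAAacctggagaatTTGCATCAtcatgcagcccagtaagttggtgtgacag
Slc7a7: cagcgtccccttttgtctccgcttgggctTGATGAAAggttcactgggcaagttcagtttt
In Slc7a11 the matches lie on opposite strands. Slc7a7 also held TGATGCAA at bases -243 to -236 from another of its start sites, a stretch not shown. RefSeq promoters were at hand for 99 members, and 4 of these (4.04%) held TGATGNAA, against 2.25% of 8276 tested genes and 3.45% of all 32851 promoters, and in the amino acid class it was 2 of 19, the genes shown here. Of the 10 amino acid carriers that fell in GAP-2/3, 7 had an entry, and 1 of these held it. Slc7a5, Slc1a5 and Slc6a6 had no entry and were not searched. The letters are a description of these windows, and binding was not measured.

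Other exchangers and importers of the plasma membrane fell with Slc7a5 in GAP-2/3. Slc6a9 (GlyT1), a sodium-dependent glycine carrier, was at 36.2 and 34.1 FPKM in GAP-scr, 31.4 and 31.1 in GAP-2, and 12.2 and 14.4 in GAP-2/3. Its libraries did not overlap between groups, and it fell by 1.34 ± 0.12 on the log2 scale in GAP-2/3 (adjusted p = 1.23e-05, limma) and by 1.18 ± 0.12 against GAP-2 (adjusted p = 9.99e-05), while the value in GAP-2 against GAP-scr, -0.16 ± 0.12, did not pass. Slc7a1 (CAT1), the main importer of arginine and lysine in many cells, was at 23.3 and 23.8 FPKM in GAP-scr, 17.4 and 20.7 in GAP-2, and 11.3 and 14.1 in GAP-2/3, a log2 change of -0.85 ± 0.13 in GAP-2/3 (adjusted p = 7.98e-04). In GAP-2/3 the importer of cationic amino acids thus fell while the exporter Slc7a7 rose.

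Both carriers of small neutral amino acids of the Slc1 family fell in GAP-2/3. Slc1a5 (ASCT2), which exchanges glutamine, was at 8.90 and 10.8 FPKM in GAP-scr, 8.81 and 9.13 in GAP-2, and 4.42 and 5.66 in GAP-2/3 (log2 -0.85 ± 0.14 against GAP-scr, adjusted p = 0.00104, limma). Slc1a4 (ASCT1), which exchanges alanine, serine and cysteine, was at 20.0 and 21.2 FPKM in GAP-scr, 25.3 and 27.3 in GAP-2, and 11.7 and 13.3 in GAP-2/3. Its GAP-2 libraries were the highest of the 6 and its GAP-2/3 libraries the lowest. It fell in GAP-2/3 against GAP-scr (-0.68 ± 0.11, adjusted p = 0.00126) and against GAP-2 (-1.02 ± 0.11, adjusted p = 2.53e-04), and the value in GAP-2, 0.34 ± 0.11, did not pass (adjusted p = 0.0688). Between the arms Slc1a5 also passed (-0.73 ± 0.14, adjusted p = 0.00765), as did Slc7a1 (-0.55 ± 0.13, adjusted p = 0.0233), but the call of Slc1a5 was lost without GAP-2/3 replicate A, and that of Slc7a1 when GAP-2 replicate B or either GAP-2/3 replicate was left out.

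The most abundant amino acid carriers behaved differently from each other. Slc38a2 (SNAT2), the sodium-driven carrier of glutamine and alanine that cells raise when amino acids run short, lay between 210 and 252 FPKM in all 6 libraries, with log2 changes of 0.08 ± 0.11 in GAP-2 and -0.04 ± 0.11 in GAP-2/3 that did not pass. Slc6a6 (TauT), which takes up taurine, an osmolyte that skeletal muscle holds in plenty, was at 203 and 174 FPKM in GAP-scr, 158 and 141 in GAP-2, and 115 and 134 in GAP-2/3. No library of one group reached into another. It fell in GAP-2/3 (-0.59 ± 0.12, adjusted p = 0.0038, limma), a call lost without GAP-2/3 replicate A, and for the mean of both arms (-0.46 ± 0.11, adjusted p = 0.00773). The value in GAP-2 was -0.33 ± 0.12 (adjusted p = 0.0927).

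Among the weakly expressed amino acid carriers, 3 were higher in GAP-2, and 2 of these, Slc6a15 and Slc6a17, in GAP-2/3 as well. Slc6a15 (B0AT2), a carrier of branched-chain amino acids and proline, was at 1.26 and 0.688 FPKM in GAP-scr, 2.50 in both GAP-2 libraries, and 1.81 and 1.50 in GAP-2/3 (log2 0.84 ± 0.15 in GAP-2, adjusted p = 0.00457, limma). Its relative Slc6a17 (NTT4), known from synaptic vesicles, was at 0.863 and 0.821 FPKM in GAP-scr, 2.08 and 1.85 in GAP-2, and 1.25 and 1.79 in GAP-2/3 (log2 0.69 ± 0.14 in GAP-2, adjusted p = 0.0077, lost without GAP-2 replicate A). In GAP-2/3 both rose by a log2 of 0.44 (SE 0.15 and 0.14, adjusted p = 0.0377 and 0.0242), calls that were lost with quantile normalization and without GAP-scr replicate B or GAP-2/3 replicate B. For Slc6a15 the call was also lost with one median and without GAP-2/3 replicate A. The arms did not differ past the threshold for either gene (adjusted p = 0.116 and 0.29). Slc15a3 (PHT2), an endolysosomal carrier of histidine and small peptides, was at 1.06 and 0.549 FPKM in GAP-scr, 2.12 and 2.04 in GAP-2, and 0.946 and 0.872 in GAP-2/3. It rose in GAP-2 (0.79 ± 0.15, adjusted p = 0.00551), and GAP-2/3 was lower than GAP-2 (-0.69 ± 0.15, adjusted p = 0.0129), a difference not called without GAP-2 replicate A or either GAP-2/3 replicate. The 3 genes reached a mean of 1 FPKM only because of the libraries in which they were high.

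Slc43a1 (LAT3), a uniporter of large neutral amino acids that needs no heavy chain, was the 1 amino acid carrier higher in GAP-2/3 than in GAP-2. It stood at 2.44 and 2.21 FPKM in GAP-scr, 1.65 and 1.38 in GAP-2, and 2.83 and 2.84 in GAP-2/3. The difference between the arms was 0.61 ± 0.12 (adjusted p = 0.0103, limma) and was not called without GAP-2 replicate B or either GAP-2/3 replicate. Against GAP-scr the gene fell in GAP-2 (-0.40 ± 0.12, adjusted p = 0.0479), a call lost when any 1 library was left out. The value in GAP-2/3 against GAP-scr, 0.21 ± 0.12, did not pass (adjusted p = 0.195). Slc43a2 (LAT4), which carries the same class of amino acids, was lower in GAP-2/3 (14.8 and 11.0 FPKM in GAP-scr, 8.20 and 9.13 in GAP-2/3; -0.51 ± 0.16, adjusted p = 0.0242), a call lost without GAP-scr replicate A, either GAP-2/3 replicate or both libraries highest in Rn45s.

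The remaining amino acid carriers changed less. Slc38a1 (SNAT1), a glutamine importer, was at 13.8 and 13.2 FPKM in GAP-scr, 16.0 and 16.2 in GAP-2, and 10.4 and 12.0 in GAP-2/3, and was called between the arms alone (-0.49 ± 0.12, adjusted p = 0.0223, limma), not without any 1 of the 4 libraries concerned. Slc38a10 (-0.35 ± 0.12, adjusted p = 0.0452) and Slc36a4 (0.34 ± 0.12, adjusted p = 0.0425) were just past the threshold in GAP-2/3, and leaving out 1 library ended both calls, for 4 and 5 of the 6 libraries in turn. The call of Slc36a4 was also lost with one median, with quantile normalization and with the replicate letter as a block. Both calls were lost when only the compared groups were fitted, and that of Slc38a10 also without the intensity trend. Slc38a9, the lysosomal arginine sensor of mTORC1, ran from 2.75 to 3.20 FPKM and was not called in any comparison. Nor were 3 other carriers known from lysosomes, Slc36a1 (4.09 to 6.09 FPKM), Slc38a7 (11.4 to 14.0) and Slc15a4 (11.3 to 15.6). Slc38a6 and Slc16a10, an exporter of aromatic amino acids, were not called either.

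**Figure D3:**
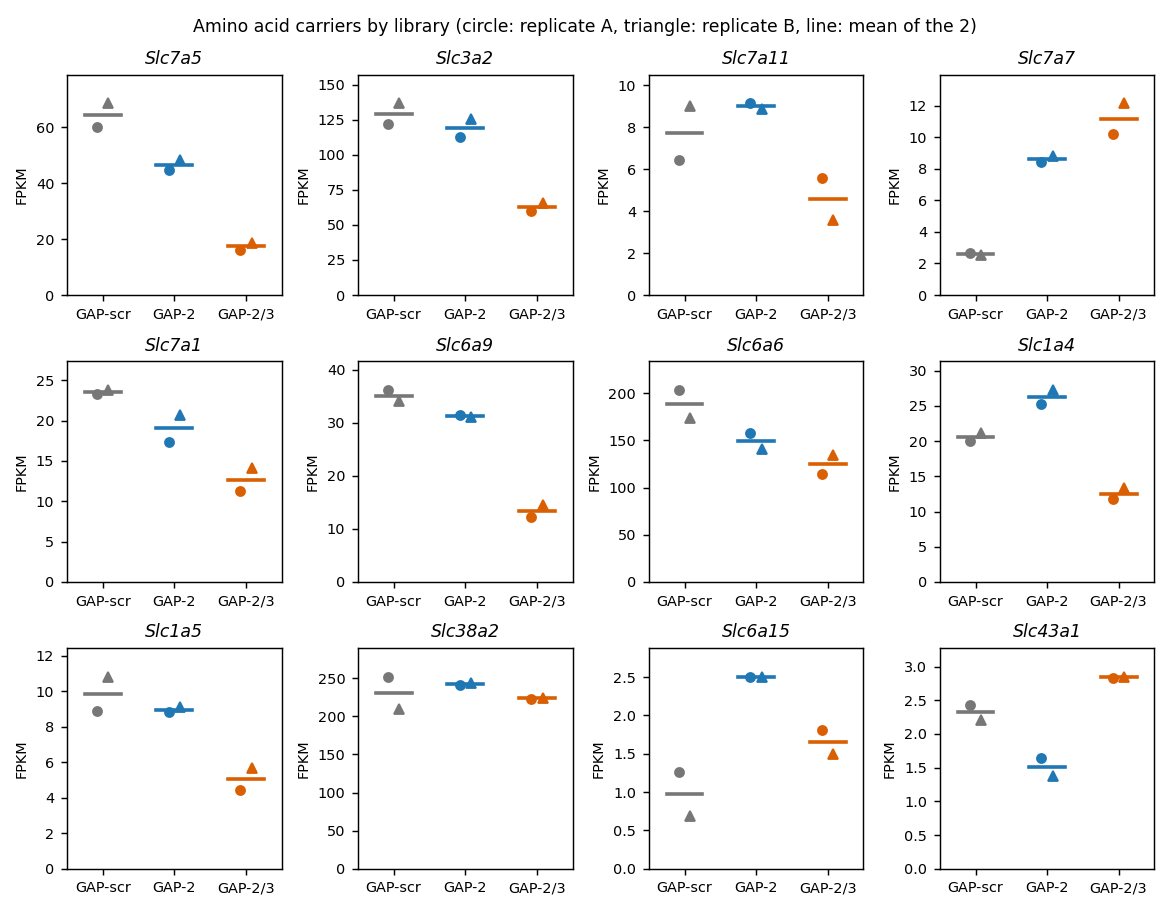
FPKM (y axis, from 0) of 12 amino acid carriers in the 6 libraries; circles are replicate A, triangles replicate B and lines the mean of the 2. Slc7a5, Slc6a9 and Slc3a2 are lowest in GAP-2/3, at 16.3 and 18.5, 12.2 and 14.4, and 60.0 and 66.0 FPKM, Slc7a7 is highest there at 10.2 and 12.1, and Slc38a2 stays between 210 and 252 in all 6.

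Genes that respond to a shortage of amino acids were counted beside these carriers. The list held 24, all tested, and none is a solute carrier. It was chosen with earlier results of these data known, so its counts are only a description. Against GAP-scr 18 fell and 1 rose in GAP-2/3 (median log2 change -0.61), beside 11.3% and 28.0% of all tested genes. In GAP-2, 8 rose and 0 fell (median 0.26), beside 10.4% and 4.18%. Between the arms 20 were lower in GAP-2/3 (median -0.86), where 3.65% of all genes were. The median of all tested genes was 0.13, 0.07 and 0.05 in these comparisons. Chac1, which degrades glutathione, was at 33.7 and 33.2 FPKM in GAP-scr, 31.6 and 41.8 in GAP-2, and 10.6 and 12.1 in GAP-2/3. Aldh18a1, which makes the precursor of proline, was at 46.0 and 45.2, 40.3 and 44.0, and 20.6 and 25.6 FPKM. The hormone gene Fgf21 stood at 313 and 202, 158 and 203, and 83.9 and 81.6 FPKM. These genes were, as Slc7a5, Slc6a9 and Slc3a2, lower in both GAP-2/3 libraries than in the other 4. The list is not uniform, since the stress gene Nupr1 rose from 134 and 101 FPKM in GAP-scr to 212 and 223 in GAP-2 and 249 and 261 in GAP-2/3. Without replicate A or B of GAP-2/3, 12 of the 24 were lower between the arms, and without GAP-2 replicate B the rise in GAP-2 was called for 3. The part of these genes in the carriers' changes was not tested.

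Carriers of sugars, creatine, polyols and monocarboxylates numbered 14, of which 3 rose in GAP-2, and 4 rose and 3 fell in GAP-2/3. The share that rose in GAP-2/3, 28.6%, was that of all tested genes (28.0%), and in GAP-2 it was 21.4% beside 10.4%. The 7 calls in GAP-2/3 became 2 without GAP-2/3 replicate A and 4 without either GAP-2 replicate. They were 3 higher and 3 lower with one median, and 2 and 4 with quantile normalization. Slc2a9 (GLUT9), which carries urate, was at 0.396 and 0.401 FPKM in GAP-scr, 1.78 and 1.71 in GAP-2, and 2.11 and 2.13 in GAP-2/3. Its level in the arms was 4.38 and 5.33 times that in GAP-scr, with log2 changes of 0.97 ± 0.12 (adjusted p = 4.19e-04, limma) and 1.16 ± 0.12 (adjusted p = 4.50e-05). It reached the mean of 1 FPKM through the depleted arms alone, so the shares of the class that rose depend on that filter. Its level was low in every library.

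Slc16a1 (MCT1), which carries lactate and pyruvate with a proton, was at 24.3 and 21.4 FPKM in GAP-scr, 38.7 and 43.8 in GAP-2, and 30.8 and 27.9 in GAP-2/3. GAP-2 was the highest group without overlap, and the gene rose there by a log2 of 0.82 ± 0.12 (adjusted p = 0.00131, limma). The rise in GAP-2/3, 0.35 ± 0.12 (adjusted p = 0.0378), was lost under both scalings and when any 1 library but GAP-scr replicate A was left out. GAP-2/3 was below GAP-2 (-0.48 ± 0.12, adjusted p = 0.027), a call lost without any 1 of the 4 depleted libraries. Emb, embigin, a chaperone that brings monocarboxylate carriers to the membrane, rose in both arms, from 11.8 and 11.1 FPKM to 19.4 and 19.1 and to 19.1 and 16.3 (log2 0.71 ± 0.12, adjusted p = 0.00314, and 0.58 ± 0.12, adjusted p = 0.00321).

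The promoter of Slc16a1 is shown because it was the most strongly raised carrier of its class in GAP-2 with a match in its RefSeq promoter. The stretch chr3:104638434-104638494 of GRCm38.p6, plus strand, bases -230 to -170 from the start site, has in capitals the E-box CACGTG, bound by factors such as MYC, USF and TFEB, overlapping the antioxidant-type letters TGACNNNGC read on the other strand.
Slc16a1: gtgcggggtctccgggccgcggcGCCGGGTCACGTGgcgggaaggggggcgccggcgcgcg
CACGTG was found in 16 of the 99 members with a promoter (16.2%) against 10.2% of tested genes and 6.02% of all promoters, and TGACNNNGC in 18 (18.2%) against 14.1% and 10.2%.

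Slc5a3 (SMIT1), which takes up the osmolyte myo-inositol, rose in both arms, from 3.48 and 2.39 FPKM to 5.90 and 5.86 in GAP-2 and 4.68 and 4.69 in GAP-2/3 (log2 0.82 ± 0.14, adjusted p = 0.0039, and 0.55 ± 0.14, adjusted p = 0.0114, limma). The call in GAP-2/3 was lost with quantile normalization and without GAP-scr replicate B or either GAP-2/3 replicate. The carrier of the other osmolyte, taurine, Slc6a6, had fallen for the mean of both arms. Slc6a8, the creatine carrier through which muscle fills its phosphocreatine store, was at 21.5 and 19.0 FPKM in GAP-scr, 26.2 and 23.1 in GAP-2, and 14.1 and 16.5 in GAP-2/3. It was lower in GAP-2/3 than in GAP-2 (-0.65 ± 0.13, adjusted p = 0.00782), a difference not called without GAP-2 replicate A or GAP-2/3 replicate A. Slc50a1 (SWEET1), a sugar carrier, rose in GAP-2/3 from 19.5 and 18.7 to 28.1 and 28.4 FPKM (0.54 ± 0.11, adjusted p = 0.00415). Slc2a6 (GLUT6) was at 26.3 and 23.6 FPKM in GAP-scr, 19.2 and 20.1 in GAP-2, and 18.5 and 20.1 in GAP-2/3, and its call in GAP-2/3 (-0.35 ± 0.11, adjusted p = 0.0285) was lost without any 1 library but GAP-scr replicate B.

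Among 29 carriers of nucleosides, vitamins, choline, heme and organic ions, 5 rose and 2 fell in GAP-2, and 9 rose and 1 fell in GAP-2/3. The 7 are 24.1% of the class and the 10 are 34.5%, beside 14.6% and 39.3% of all tested genes. The 10 calls in GAP-2/3 became 3 without GAP-2/3 replicate A and 5 without replicate B, and they were 4 higher and 2 lower with one median, and 3 and 4 with quantile normalization. The 7 calls in GAP-2 became 3 without either GAP-2 replicate and 4 without GAP-scr replicate B or either GAP-2/3 replicate, and both scalings gave 3 higher, with 3 and 4 lower. Slc48a1 (HRG1), which releases heme from endolysosomes into the cytosol, had the second highest rise of all members in both arms on the scale of log2(FPKM + 1), where weakly expressed genes count for less. By the ratio of mean FPKM, Slc2a9 and Slc7a7 were above it in both arms, and Slc15a3, Slc6a15 and Slc6a17 in GAP-2. It was at 24.1 and 29.7 FPKM in GAP-scr, 59.5 and 62.8 in GAP-2, and 64.2 and 69.9 in GAP-2/3, or 2.27 and 2.49 times the GAP-scr mean. The log2 changes were 1.16 ± 0.12 (adjusted p = 1.43e-04, limma) and 1.29 ± 0.12 (adjusted p = 2.48e-05), and the arms did not differ past the threshold (0.13 ± 0.12, adjusted p = 0.543). Slc40a1 (ferroportin), the exporter of iron, which is counted in the metal class below, was called in GAP-2 but not in GAP-2/3. It was at 27.1 and 23.2 FPKM in GAP-scr, 42.9 and 41.1 in GAP-2, and 23.1 and 24.0 in GAP-2/3 (0.72 ± 0.11 in GAP-2, adjusted p = 0.00224, and -0.81 ± 0.11 between the arms, adjusted p = 0.00115). Mfsd7b (Flvcr1), the heme exporter, which is listed under another symbol, rose from 2.84 and 2.14 FPKM to 4.51 and 4.65 in GAP-2 and 4.64 in both GAP-2/3 libraries.

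Slc48a1, Slc40a1, Slc7a7 and Slc15a3 are also known from macrophages. So is Slc11a1, a member named after its values were seen, which was not called in any comparison. It was at 3.89 and 2.77 FPKM in GAP-scr, 3.27 and 2.77 in GAP-2, and 2.60 and 2.24 in GAP-2/3. Markers of that cell type were read beside these carriers. Of 7 on the list only Cd68 and Cd14 were tested, and Adgre1, Csf1r, Itgam, Lyz2 and Ptprc are not analysed here. The summed level of the 2 was 3.12 and 4.04 FPKM in GAP-scr, 7.28 and 7.70 in GAP-2, and 5.55 and 5.25 in GAP-2/3. Cd68 was at 0.374 and 0.917 FPKM in GAP-scr, 2.43 and 3.54 in GAP-2, and 0.962 and 0.834 in GAP-2/3. Of the 2 markers, 2 rose in GAP-2 and 1 in GAP-2/3, beside 10.4% and 28.0% of all tested genes. Cd68 alone thus does not describe both. Moreover, Cd68 reached a mean of 1 FPKM only through the GAP-2 libraries, so the count in GAP-2 depends on that filter. The part of such cells in these carriers' changes was not tested.

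Slc27a3 (FATP3), an acyl-CoA synthetase of the fatty acid carrier family, had a pattern like that of Slc40a1. It was at 4.49 and 4.94 FPKM in GAP-scr, 9.28 and 9.90 in GAP-2, and 4.51 and 4.84 in GAP-2/3. The GAP-2 libraries were about 2.03 times the GAP-scr mean, and GAP-2/3 lay within the range of GAP-scr (0.89 ± 0.12 in GAP-2, adjusted p = 8.33e-04, and -0.90 ± 0.12 between the arms, adjusted p = 7.53e-04, limma). Slc19a2, a thiamine carrier, was at 9.09 and 6.67 FPKM in GAP-scr, 14.7 and 13.0 in GAP-2, and 10.6 and 10.8 in GAP-2/3. It rose in GAP-2 (0.76 ± 0.14, adjusted p = 0.00585) and in GAP-2/3 (0.41 ± 0.14, adjusted p = 0.0404), the latter a call lost under both scalings and when any 1 library but GAP-scr replicate A was left out, and the difference between the arms did not pass (-0.35 ± 0.14, adjusted p = 0.142).

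Other members of the class were higher in GAP-2/3. Slc43a3, a purine nucleobase carrier, was at 4.99 and 6.43 FPKM in GAP-scr, 5.99 and 7.03 in GAP-2, and 9.85 and 9.64 in GAP-2/3 (0.69 ± 0.14 against GAP-scr, adjusted p = 0.00301, limma). Slc22a15, an organic ion carrier, was at 1.19 and 1.78, 1.85 and 1.80, and 3.06 and 2.96 FPKM (0.70 ± 0.14, adjusted p = 0.00283). Slc22a17, a receptor for the iron-binding protein lipocalin 2, was at 6.95 and 8.15 FPKM in GAP-scr, 5.86 and 5.54 in GAP-2, and 10.6 and 10.0 in GAP-2/3, and was higher in GAP-2/3 than in GAP-2 (0.75 ± 0.12, adjusted p = 0.00286), a difference not called without GAP-2/3 replicate A. Slc22a4, a carrier of ergothioneine (0.59 ± 0.14, adjusted p = 0.00782), was lost with quantile normalization and without GAP-2/3 replicate A, and Slc17a5, the lysosomal exporter of sialic acid (0.38 ± 0.12, adjusted p = 0.0242), under both scalings and 5 of the 6 single-library omissions. Slc18b1, a vesicular polyamine carrier, rose for the mean of both arms (0.42 ± 0.10, adjusted p = 0.00876), but not without both libraries highest in Rn45s.

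Slc29a1 (ENT1), which equilibrates adenosine across the membrane, had the highest mean of all 131 members. It was at 543 and 579 FPKM in GAP-scr, 412 and 457 in GAP-2, and 506 and 524 in GAP-2/3. The groups did not overlap, yet the call in GAP-2 (-0.37 ± 0.11, adjusted p = 0.0402, limma) was lost without any 1 library but GAP-scr replicate A. Slc44a4, of the choline carrier family, was likewise lower in GAP-2 (6.48 and 7.43 FPKM against 4.46 and 5.11, adjusted p = 0.0306), a call lost in the same cases. Slc52a2, a riboflavin carrier, was lower for the mean of both arms (-0.38 ± 0.10, adjusted p = 0.0159), except without GAP-2 replicate B or GAP-2/3 replicate A. Slc22a5 (OCTN2), which brings carnitine into muscle, was at 5.08 to 6.43 FPKM in GAP-scr and 6.68 to 7.81 in the arms and was not called (0.32 ± 0.11 for the mean of both arms, adjusted p = 0.0501).

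**Figure D4:**
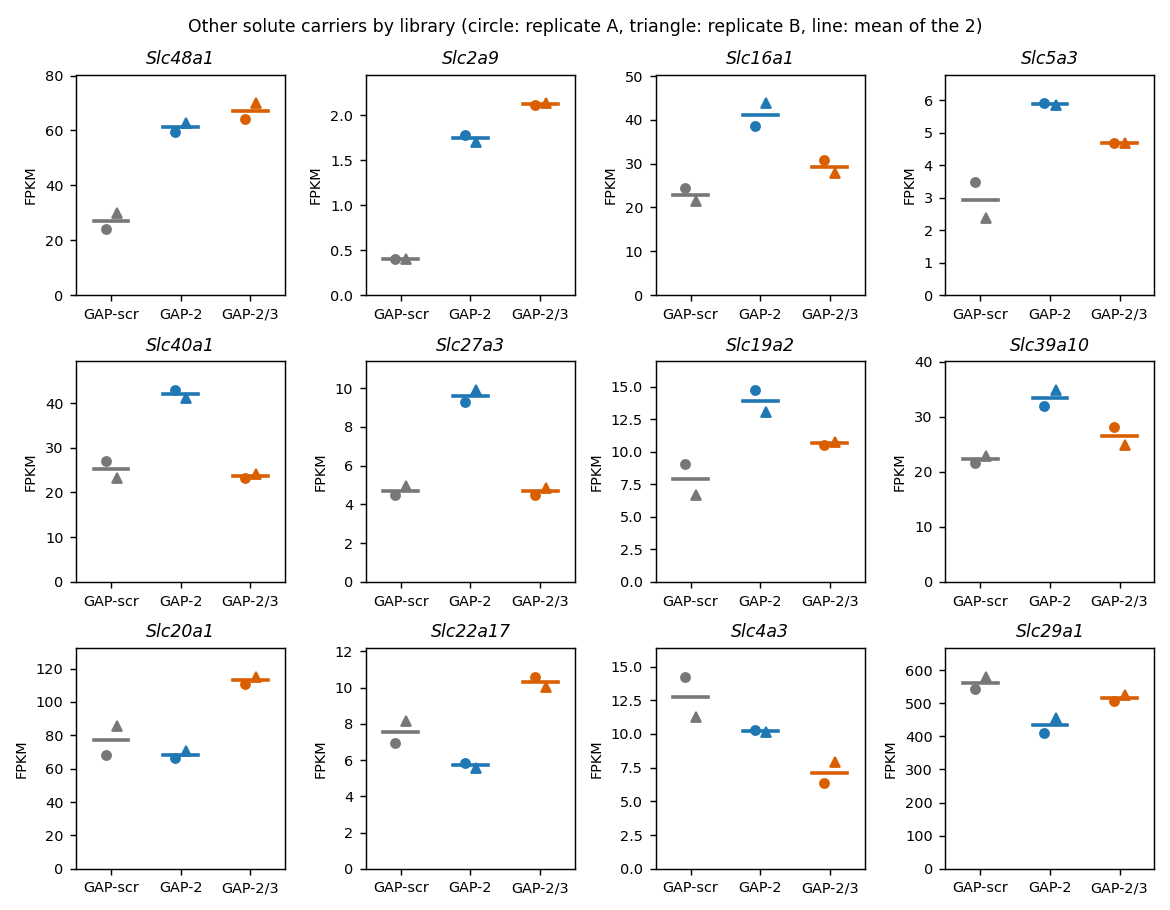
FPKM (y axis, from 0) of 12 carriers of other substrates in the 6 libraries; circles are replicate A, triangles replicate B and lines the mean of the 2. Slc48a1 and Slc2a9 are higher in both arms, Slc40a1 and Slc27a3 in GAP-2, at 42.9 and 41.1 and at 9.28 and 9.90 FPKM, and Slc20a1 in GAP-2/3, at 111 and 115.

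Carriers of inorganic ions, 21 in number, were called 2 times in GAP-2 (1 higher, 1 lower) and 8 times in GAP-2/3 (4 and 4), or 9.52% and 38.1% of the class beside 14.6% and 39.3% of all tested genes. The 8 became 1 without GAP-2/3 replicate A, and were 2 higher and 7 lower with one median, and 2 and 9 with quantile normalization. In GAP-2 no more than 1 was called when any library was left out. Slc20a1 (PiT1), a sodium-driven phosphate importer and the most abundant of these that was called, was at 68.3 and 85.7 FPKM in GAP-scr, 66.4 and 70.4 in GAP-2, and 111 and 115 in GAP-2/3. It rose in GAP-2/3 against GAP-scr (0.55 ± 0.12, adjusted p = 0.0049, limma) and against GAP-2 (0.71 ± 0.12, adjusted p = 0.00398). The first call was lost without GAP-2/3 replicate A and the second without either GAP-2/3 replicate. The second phosphate importer, Slc20a2, ran from 10.8 to 13.2 FPKM and was not called. Slc4a3 (AE3), a chloride and bicarbonate exchanger of excitable tissues, was at 14.2 and 11.2 FPKM in GAP-scr, 10.3 and 10.1 in GAP-2, and 6.34 and 7.93 in GAP-2/3 (-0.75 ± 0.14 in GAP-2/3, adjusted p = 0.00224).

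Slc9a8 (NHE8), a proton exchanger of the Golgi, fell in GAP-2/3 from 13.7 and 13.9 to 9.34 and 10.2 FPKM (-0.46 ± 0.12, adjusted p = 0.0104, limma), a call lost without GAP-2/3 replicate A. Slc12a4 (KCC1), which exports potassium with chloride, fell in GAP-2/3 from 30.7 and 31.5 to 21.6 and 25.2 FPKM (-0.40 ± 0.12, adjusted p = 0.0213), again except without GAP-2/3 replicate A. Slc26a2, the sulfate carrier needed for proteoglycan, was at 11.0 and 7.59 FPKM in GAP-scr, 16.7 and 14.2 in GAP-2, and 12.0 and 14.0 in GAP-2/3, a rise for the mean of both arms of 0.58 ± 0.14 (adjusted p = 0.00935) that was lost without GAP-scr replicate B.

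The sodium pump supplies the gradient that many of these carriers use. Of 21 tested pump subunits, chaperones and regulators of carriers, 3 rose and 2 fell in GAP-2, and 4 rose and 3 fell in GAP-2/3, or 23.8% and 33.3% called beside 14.6% and 39.3% of all tested genes. Fxyd5, a small regulator of the pump, rose from 2.68 and 2.64 to 4.23 and 5.03 and to 5.88 and 7.16 FPKM. Txnip, which promotes the removal of glucose carriers from the membrane, rose in GAP-2 from 10.8 and 7.45 to 17.8 and 16.8 FPKM (0.88 ± 0.15, adjusted p = 0.00346, limma) and was at 10.8 and 10.5 in GAP-2/3. Of 27 tested carriers known under other symbols, 8 rose and 1 fell in GAP-2, and 10 rose and 2 fell in GAP-2/3. The shares called were 33.3% and 44.4%, beside the same 14.6% and 39.3%. Abcc5 rose in GAP-2/3 (0.64 ± 0.11, adjusted p = 0.00123), and Mfsd2a, which carries lysophospholipids, fell in GAP-2 (-0.52 ± 0.11, adjusted p = 0.0103).

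Metal carriers that were called against GAP-scr were higher. Of 22, 5 (22.7%) rose in GAP-2, 5 (22.7%) in GAP-2/3 and 7 (31.8%) for the mean of both arms, and 0 fell in any of these (limma). Over all tested genes 10.4%, 28.0% and 24.5% rose, so in GAP-2/3 the share that rose was below the background. At an unadjusted p under 0.05, 0 were lower in GAP-2 and 0 for the mean of both arms, and 2 were lower in GAP-2/3. Leaving out GAP-2 replicate B turned the 7 into 1, leaving out GAP-2/3 replicate A into 3 and leaving out GAP-2 replicate A into 4, and one median gave 4 higher and 1 lower. The 5 of GAP-2 became 1 without GAP-2 replicate B and 2 without GAP-2 replicate A or either GAP-2/3 replicate. In GAP-2/3 one median gave 1 higher and 1 lower, and quantile normalization 1 and 3. The 5 of GAP-2/3 became 2 without either GAP-2 replicate or both libraries highest in Rn45s, 3 when replicate A of GAP-scr was omitted, and 1 and 0 when replicates B and A of GAP-2/3 were. Slc39a10 (ZIP10), a zinc importer of the plasma membrane, was at 21.6 and 22.9 FPKM in GAP-scr, 32.0 and 34.9 in GAP-2, and 28.2 and 24.9 in GAP-2/3 (0.56 ± 0.11 in GAP-2, adjusted p = 0.00814), lost without GAP-2 replicate B. Slc39a14 (ZIP14), which imports zinc and iron, ran from 17.9 to 20.7 FPKM and was not called, nor was the abundant Slc39a7 (ZIP7), which releases zinc from the endoplasmic reticulum, at 89.9 to 116 FPKM. Slc41a2, a magnesium carrier, rose for the mean of both arms (0.41 ± 0.10, adjusted p = 0.0117), except without GAP-2 replicate B and without both libraries highest in Rn45s.

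The zinc carriers Slc30a5 (ZnT5) and Slc30a7 (ZnT7) supply zinc to enzymes of the early secretory pathway such as alkaline phosphatase. Slc30a5 was at 15.7 and 13.5 FPKM in GAP-scr, 19.1 and 21.0 in GAP-2, and 21.3 and 20.3 in GAP-2/3, a rise for the mean of both arms of 0.46 ± 0.10 (adjusted p = 0.00628, limma). Slc30a7 was at 4.57 and 3.62, 5.36 and 6.04, and 6.12 and 5.75 FPKM (0.42 ± 0.11, adjusted p = 0.0157). All 4 depleted libraries were above both GAP-scr libraries for each gene. The call of Slc30a7 was lost with quantile normalization and without GAP-scr replicate B, GAP-2 replicate B or GAP-2/3 replicate A.

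Carriers of the endoplasmic reticulum and Golgi showed small changes. Of 20 such carriers of sugar nucleotides and acetyl-CoA, 8 rose and 1 fell for the mean of both arms, and 7 rose and 1 fell in GAP-2/3, while 1 rose in GAP-2. The calls for both arms are 45.0% of the class and those in GAP-2/3 are 40.0%, where 34.1% and 39.3% of all tested genes were called, most of them higher, and the count in GAP-2/3 was thus at the background. The 1 call in GAP-2 was below the 14.6% of all genes. Between the arms 0 were called (limma), with 3 higher and 2 lower at an unadjusted p under 0.05. The median log2 change was 0.25 for the mean of both arms beside 0.10 over all genes, and 0.17 beside 0.02 with one median, where 6 rose and 2 fell. With quantile normalization 3 rose and 2 fell, and in GAP-2/3 it was 7 and 2 with one median and 6 and 3 with quantile normalization. The 8 calls of GAP-2/3 became 2 without its replicate A. The 9 calls of both arms became 4 without GAP-2/3 replicate A, 5 without either GAP-2 replicate and 6 without GAP-scr replicate A or both libraries highest in Rn45s.

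Slc33a1, which brings acetyl-CoA into the endoplasmic reticulum, was at 13.7 and 12.5 FPKM in GAP-scr, 17.0 and 17.6 in GAP-2, and 20.6 and 18.1 in GAP-2/3 (0.46 ± 0.10 for the mean of both arms, adjusted p = 0.00634, limma). Slc35a1, the carrier of CMP-sialic acid, was at 26.3 and 23.5, 29.8 and 31.6, and 37.3 and 34.2 FPKM (0.40 ± 0.10, adjusted p = 0.00986). Slc35b4, which carries UDP-xylose and UDP-N-acetylglucosamine, was at 8.59 and 7.93, 10.8 and 11.0, and 11.8 and 13.2 FPKM (0.45 ± 0.10, adjusted p = 0.00663). In each of the 3 the depleted libraries were all above GAP-scr, and these calls for the mean of both arms held under every alternative tried. Slc35a3 (0.44 ± 0.11, adjusted p = 0.012) and Slc35d2 (0.48 ± 0.13, adjusted p = 0.014), both carriers of UDP-N-acetylglucosamine, were not called with quantile normalization, without GAP-scr replicate A or without GAP-2/3 replicate A, and Slc35a3 also not without GAP-2 replicate B or both libraries highest in Rn45s. The most abundant of the family, Slc35b1, which exchanges ATP into the endoplasmic reticulum, ran from 77.6 to 86.3 FPKM in GAP-scr and from 89.3 to 95.7 in the arms and was not called. The 1 carrier that fell was Slc35a4, at 32.6 and 33.6, 30.6 and 28.5, and 23.3 and 26.3 FPKM (-0.28 ± 0.10, adjusted p = 0.0413), a gene named after its values were seen. Tmem165, a Golgi manganese and calcium carrier needed for glycosylation and listed under its own symbol, rose from 29.1 and 30.6 to 38.5 and 38.9 in GAP-2 and 48.6 and 43.1 FPKM in GAP-2/3 (0.60 ± 0.11 in GAP-2/3, adjusted p = 0.00184).

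**Figure D5:**
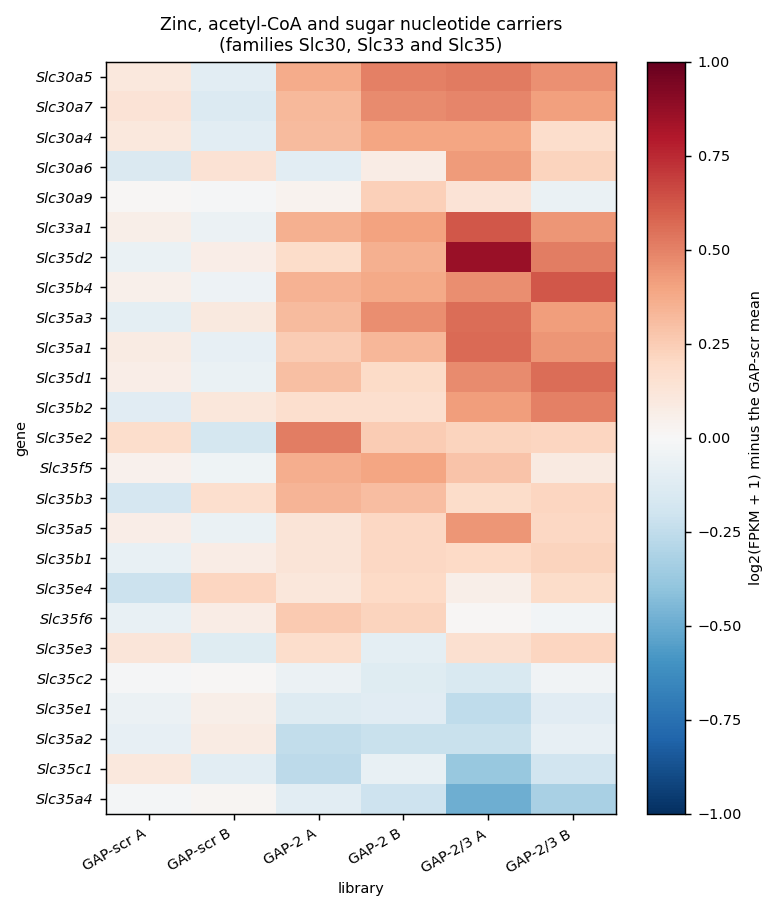
Log2(FPKM + 1) minus the GAP-scr mean (colour scale) of each carrier of the families Slc30, Slc33 and Slc35 (rows) in each of the 6 libraries (columns), red above and blue below the GAP-scr mean. Slc33a1, Slc35a1, Slc35b4 and Slc30a5 are red in all 4 depleted libraries, and Slc35a4, which fell by 0.41 on the log2 scale in GAP-2/3, is blue.

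Fibroblast markers did not move as 1 group. Of 6, 4 were tested, and in GAP-2/3 Dcn and Pdgfra rose while Col1a1 and Col1a2 fell (1.48 ± 0.14, 0.93 ± 0.13, -0.92 ± 0.13 and -0.46 ± 0.13, limma adjusted p between 2.88e-05 for Dcn and 0.0153 for Col1a2). Their summed level was 1599 and 1613 FPKM in GAP-scr, 1706 and 1425 in GAP-2, and 1020 and 1204 in GAP-2/3. None of the 5 endothelial and 5 adipocyte markers listed is analysed here, and of 5 Schwann cell markers S100b alone was tested, at 1.18 and 2.33, 4.50 and 4.04, and 28.5 and 30.8 FPKM. How far such cells bear on the levels of the carriers was not tested.

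The Charme pull-down touched few carrier genes. Of 131 members, 4 (3.05%) had 1 of the 798 deposited ChIRP peaks within their RefSeq span, against 191 of the 10950 tested genes that matched RefSeq (1.74%), a count given without a test. The peaks lay at chr2:165519796-165519953 in Slc2a10, chr14:14713646-14713728 in Slc4a7, chr5:148370896-148370977 in Slc7a1 and chr15:96630148-96630276 in Slc38a1, in GRCm38 coordinates. By the authors' score they ranked 97, 169, 499 and 699 in the list. Slc7a1 and Slc38a1 belong to the amino acid class, and Slc7a5, Slc3a2, Slc6a9 and Slc7a7 had no peak in their span.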

How the data were processed

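RNA-seq covered 6 libraries in 3 groups of 2 and ChIRP-seq 4 libraries of 1 each. Per the labels' protocols a stranded polyadenylated mRNA kit was used. Tools named in the submitters' processing notes, with no role given, are Trimmomatic, cutadapt, FastQC, CASAVA, TopHat2, Bowtie2, Cuffdiff, Cufflinks, bedtools and MACS, and the build named is mm9. The authors deposited expression values in FPKM, and every gene in the table reached 1.03 FPKM in some library, by a filter not given in the sources used here. The authors' peaks carry a score each, used only to rank them. Whether reads were counted by strand is not given, so reads of overlapping genes cannot be told apart. Charme is not analysed here.

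Values were taken as log2(FPKM + 1) for 10993 genes whose mean reached 1 FPKM. The 3 groups were fitted together in limma 3.58.1 (R 4.3.3) with an intensity trend, for 4 contrasts, and p-values adjusted by Benjamini-Hochberg over all genes. The fit was tested on simulated data. No set test was run. The members, the 6 classes and the gene lists were chosen with earlier results of these data known. Named genes were all amino acid carriers, up to 5 per other class by smallest p over both arms together, the 8 highest and 8 lowest called changes without overlap per contrast, the 6 most abundant, carriers known from muscle, members near the 1 FPKM limit or with a peak, and up to 4 per accompanying list. A few genes that this rule names are not reported here.

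In RefSeq GRCm38.p6 130 members were found under their symbol and 1 under an older one, and peaks were counted at an overlap of at least 1 bp. Peak coordinates were read as GRCm38, inferred because 1 position exceeds the length of chromosome X in mm9, which no file here holds. The alternatives tried were other filters on the mean (none, 5 FPKM), a pseudocount of 0.1, libraries scaled to one median, quantile normalization, no trend, the replicate block, omission of each library, a threshold of 0.1, fits of the compared groups only and, added after the data were seen, leaving out both libraries highest in Rn45s.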

Additional observations from a re-analysis of the deposited data

How the results depend on the processing

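The number of solute carriers past the threshold was 24 in GAP-2 against GAP-scr, 39 at an adjusted p of 0.1 and 14 when only the libraries of these groups were fitted. With 1 library left out in turn it ran from 11 to 30 in GAP-2, from 17 to 49 in GAP-2/3, from 27 to 45 for the mean of both arms and from 7 to 24 between the arms. The lowest counts came without GAP-2 replicate A in GAP-2 (11; 12 without replicate B, 14 without either GAP-2/3 replicate), and without GAP-2/3 replicate A in GAP-2/3 (17; 33 without replicate B), for both arms (27, also without GAP-2 replicate B) and between the arms (7; 9 without replicate B, 12 without either GAP-2 replicate); here fewer libraries carry the fit. Without both libraries highest in Rn45s the counts were 16, 39, 37 and 17. With the replicate block they were 25, 51, 49 and 21. Across genes the deviations of replicate A correlated at 0.36 for GAP-scr with GAP-2, whose A libraries were also the highest in Rn45s. The correlation was -0.13 for GAP-scr with GAP-2/3 and -0.18 for GAP-2 with GAP-2/3. These values cannot tell whether the letters mark pairs or batches. Of 123 calls of single named carriers 48 held under every alternative tried, and of 1905 alternative values 311 were no longer past the threshold and 0 changed sign. Part of these alternative values was fixed in advance, since a threshold of 0.1 cannot lose a call. The log2 change cannot move with other filters, no trend, the replicate block or fits of the compared groups only. Nor can it move when a library outside the contrast is left out, so the sign was fixed in these cases. FPKM gives no depth, so counting error is not known.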
